A study of Mus musculus with 12 samples.

Results

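The 10 genes described here are the 4 Notch receptors (Notch1, Notch2, Notch3 and Notch4), 3 of their ligands (Jag1, Jag2 and Dll4) and 3 of their target genes (Hes1, Hey1 and Heyl). They were picked by name among the 54658 genes counted in RNA-seq libraries of mouse mammary tumours and mammary epithelium, and all 10 were among the 21456 genes with enough counts to be tested. The tumour group held 9 libraries of mammary tumours of genotype Trp53R245W/+, a missense change in 1 allele of the tumour suppressor p53 that the series describes as somatic. The other group held 3 libraries of wild-type epithelium enriched from mammary glands of the same cohort. The strain of both groups was the C57BL/6J X BALB/cJ F1 hybrid and all mice were female; the sources used here give no age, treatment or number of mice. Tumours are named by their label numbers (1, 4, 5, 14, 17, 20, 21, 24 and 27) and epithelium libraries by 1, 2 and 3.

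In Notch signalling, a ligand on 1 cell binds a receptor on its neighbour, proteases including the gamma-secretase complex cut the receptor, and the freed intracellular part joins the DNA-binding protein RBPJ to switch on target genes such as those of the Hes and Hey families, which encode transcriptional repressors. Fringe glycosyltransferases, among them the product of Mfng, add sugars to the receptors and change which ligands they respond to. In the mammary gland Notch signalling is known for its part in the choice of the luminal fate, while Dll4, Notch4 and Hey1 are used by endothelial cells and Notch3 and Heyl by the mural cells that wrap small vessels.

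Library depth ran from 19695318 to 33600076 gene counts, so that 3 counts, the limit that a count of 0 allows, equal 0.099 to 0.274 scaled counts per 1000000 (CPM), counting error only. The library of tumour 4 differed from the rest: 51.97% of alignments were not unique (17.06 to 27.18% in the other tumours and 8.59 to 12% in epithelium), and Rn7sk, a small nuclear RNA, took 22.58% of gene counts. Trp53 averaged 48.5 ± 19.7 CPM over the tumours and 43.8 ± 1.99 CPM over the epithelium (SD, n = 9 and n = 3), which does not check the labels, since a missense change need not alter the RNA level. Luminal keratins and junction genes were present in every library: the 10 luminal markers summed to 1240 to 8100 CPM in tumours and 2000 to 3120 CPM in epithelium. The epithelium also held lymphocyte RNA, with 665 to 953 CPM over 7 B cell markers against 1.89 to 63.8 CPM in tumours. Fibroblast markers, 8 in number, summed to 3850 to 5850 CPM in epithelium and 1300 to 32000 CPM in tumours. The 6 adipocyte markers summed to 332 to 515 CPM in epithelium and 16.8 to 122 CPM in tumours. The labels do not say whether the libraries of a group came from separate mice, so p-values measure only the spread between these samples. The title prefix of the libraries follows the group, so a batch and the group cannot be told apart.

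RefSeq promoter sequences (GRCm38.p6, 250 bases before the transcript start that RefSeq gives, read 5′ to 3′ along the gene's strand) were available for 7 of the 10 members, and those of Hes1, Hey1 and Heyl were not analysed here. They were searched on both strands for the RBPJ core (TGGGAA, reverse TTCCCA), for the E-box of Hes and Hey proteins (CACGTG) and for the Hes N-box (CACNAG, reverse CTNGTG). None of the 7 held the RBPJ core, which 21.5% of 27025 promoters of the same length hold, and none held the E-box, which 6.05% hold. The N-box, held by 36.7% of promoters, lay in 4 of the 7, namely Notch1, Notch2, Notch3 and Dll4. The sequences of the 2 most abundant receptors and the 2 Jagged ligands are shown because the results below turn on them, and Hes5, a classic Notch target that had at most 0.184 CPM in any library, is set beside them as a promoter with the core. Not every target held it: the promoter of Nrarp, another Notch target, had 0 cores, 1 E-box and 2 N-boxes (named after its value was seen). The RefSeq start need not be the end of the GENCODE M21 gene given further on: the stretches of Notch1 and Jag2 lie inside that gene, and those of Jag1 and Notch2 overlap its start. Capitals mark every match; a match is a description of letters and not a site of binding.
Notch1, chr2:26503823-26504072, minus strand: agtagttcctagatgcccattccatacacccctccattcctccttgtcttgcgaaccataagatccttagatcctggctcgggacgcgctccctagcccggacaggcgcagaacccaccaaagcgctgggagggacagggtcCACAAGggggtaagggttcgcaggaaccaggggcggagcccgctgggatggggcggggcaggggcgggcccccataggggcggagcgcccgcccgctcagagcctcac
Notch2, chr3:98013288-98013537, plus strand: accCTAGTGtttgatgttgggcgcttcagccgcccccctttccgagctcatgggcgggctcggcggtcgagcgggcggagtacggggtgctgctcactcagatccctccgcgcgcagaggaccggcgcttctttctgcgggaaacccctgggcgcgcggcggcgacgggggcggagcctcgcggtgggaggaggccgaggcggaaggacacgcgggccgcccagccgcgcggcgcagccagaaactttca
Jag1, chr2:137116521-137116770, minus strand: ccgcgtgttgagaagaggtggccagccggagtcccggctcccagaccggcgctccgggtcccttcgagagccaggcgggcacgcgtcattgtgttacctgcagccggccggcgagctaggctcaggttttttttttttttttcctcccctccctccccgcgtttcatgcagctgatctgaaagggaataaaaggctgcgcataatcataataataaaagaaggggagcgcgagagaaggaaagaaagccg
Jag2, chr12:112929496-112929745, minus strand: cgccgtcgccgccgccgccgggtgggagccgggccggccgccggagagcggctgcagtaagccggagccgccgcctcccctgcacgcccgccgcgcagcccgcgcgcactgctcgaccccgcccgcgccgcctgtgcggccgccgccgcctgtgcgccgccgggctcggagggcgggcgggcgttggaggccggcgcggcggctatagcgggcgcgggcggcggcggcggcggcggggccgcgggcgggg
Hes5, chr4:154960673-154960922, plus strand: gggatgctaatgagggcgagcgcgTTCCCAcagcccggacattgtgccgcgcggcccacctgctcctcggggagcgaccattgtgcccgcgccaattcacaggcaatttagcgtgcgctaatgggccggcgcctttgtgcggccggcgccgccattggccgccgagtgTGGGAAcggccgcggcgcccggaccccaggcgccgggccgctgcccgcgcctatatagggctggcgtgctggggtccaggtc
The N-box of Notch1 began 108 bases before the RefSeq start and that of Notch2 began 247 bases before. The cores of Hes5 began 226 bases (TTCCCA) and 82 bases (TGGGAA) before the RefSeq start. The Jag2 promoter was the richest in G and C among the 7, at 87.2% against a median of 52.0% over all promoters, and that of Jag1 was the lowest at 57.2%.

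**Figure D1:**
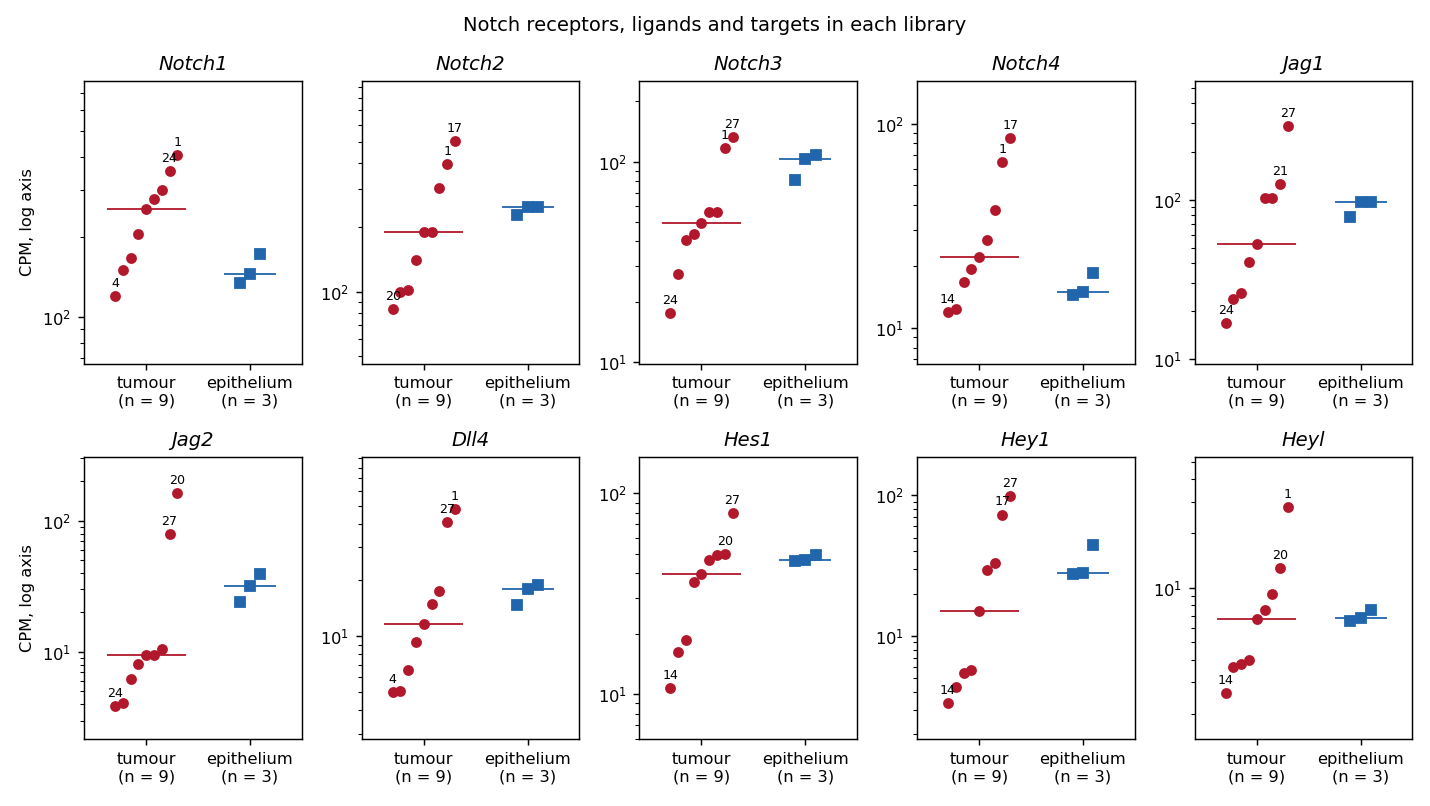
Level of each of the 10 members in CPM on a log axis, with tumours left of epithelium, 1 point per library and a bar at the group median. The tumours of every member spread over both sides of the 3 epithelium libraries. Tumour 20 reaches 162 CPM for Jag2 and tumour 27 reaches 291 CPM for Jag1.

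The comparison of tumours with epithelium asked whether the Notch genes differed in level between p53-mutant tumours and normal mammary epithelium. No member rose or fell by edgeR's quasi-likelihood test at a Benjamini-Hochberg adjusted p under 0.05, while 20.3% of all 21456 genes tested did, 8.89% higher and 11.4% lower (1908 and 2438 genes, and 506 to 548 and 1496 to 1542 genes without any 1 epithelium library). None of the 10 reached an unadjusted edgeR p under 0.05 either, against 36.0% of all genes tested. Every member overlapped between the groups, whereas 24.3% of all genes tested did not overlap. The median log2 fold change of the members, tumour over epithelium, was -0.01, beside 0.17 for all genes tested. DESeq2 also called 0 of the 10, beside 25.5% of its 28995 genes with an adjusted p (13.1% higher and 12.4% lower). A limma-voom fit that weights each group by its quality called 2 of the 10, Notch1 higher and Notch3 lower, beside 49.5% of all genes (23.3% higher and 26.2% lower). In bulk RNA, fewer cells of a type and less RNA per cell cannot be told apart, and this holds for every level below.

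Among the receptors, Notch1 (chromosome 2, 26457903 to 26516663, minus strand, GRCm38) and Notch4 had higher means in tumours than in epithelium, and Notch2 and Notch3 had lower ones. Notch1, the receptor with broad expression in epithelium, ranged from 120 CPM in tumour 4 through a median of 256 to 407 CPM in tumour 1, against 134, 172 and 145 CPM in epithelium libraries 1, 2 and 3. It lay above all epithelium libraries in 6 of 9 tumours and below them in tumour 4. The log2 fold change of Notch1 was 0.73 (SE 0.36, edgeR adjusted p = 0.166). It was called by limma-voom, at 0.64 with an adjusted p of 0.0241. Notch4 (chromosome 17, 34564268 to 34588503, plus strand), the receptor known from endothelium, had 12 CPM in tumour 14, a median of 22.3 and 85.1 CPM in tumour 17, against 18.6, 14.9 and 14.5 CPM in epithelium. It exceeded all epithelium libraries in 6 tumours, most in tumours 17 and 1 (85.1 and 65.1 CPM), with a log2 fold change of 1.05 (SE 0.61, edgeR adjusted p = 0.231).

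Notch3 (chromosome 17, 32120820 to 32166852, minus strand), a receptor known from mural cells though not from them alone, had 17.6 CPM in tumour 24, a median of 49.1 and 133 CPM in tumour 27, against 103, 108 and 80.8 CPM in epithelium. It lay below all epithelium libraries in 7 tumours and above them in tumours 1 and 27 (117 and 133 CPM). Its log2 fold change was -0.69 (SE 0.49, edgeR adjusted p = 0.322), and -0.94 with an adjusted p of 0.0218 by limma-voom, which called it. Notch2 (chromosome 3, 98013527 to 98150361, plus strand), a receptor shared by many epithelial and stromal cells, had 83.3 CPM in tumour 20, a median of 191 and 505 CPM in tumour 17, against 249, 229 and 249 CPM in epithelium. Tumours 17, 1 and 21 lay above every epithelium library (505, 392 and 304 CPM) and the other 6 lay below. The log2 fold change of Notch2 was -0.12 (SE 0.51, edgeR adjusted p = 0.889). A gene model inside Notch2 on its strand, Gm42819, averaged 6.49 CPM over the tumours and 16.8 CPM over the epithelium, so counts where the 2 overlap are uncertain.

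**Figure D2:**
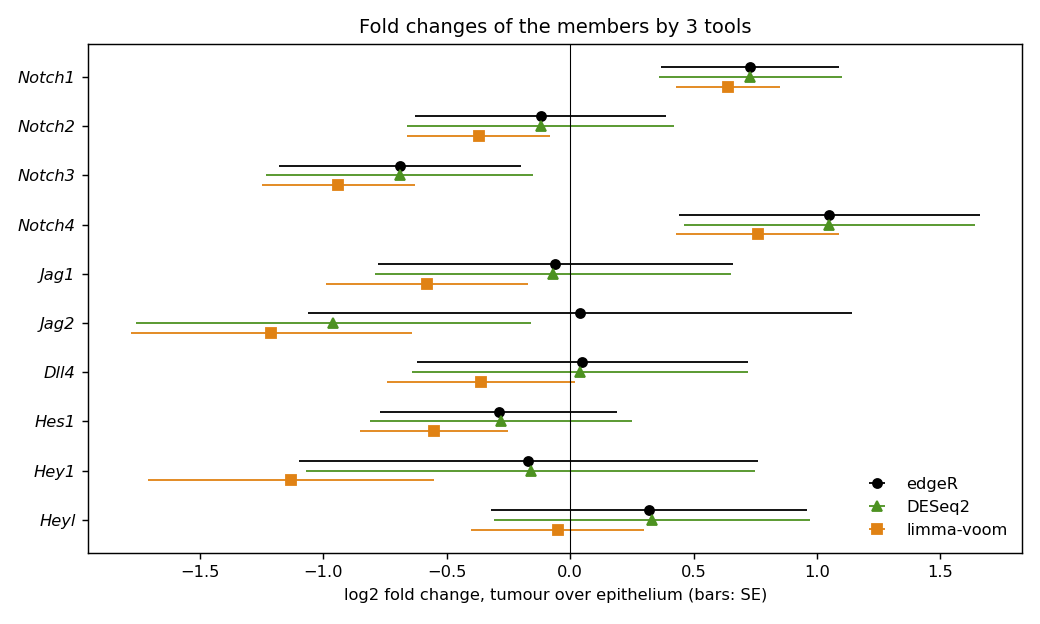
Log2 fold change, tumour over epithelium, of the 10 members with its standard error, by edgeR, DESeq2 and limma-voom. The 3 tools put Notch1 and Notch4 above 0 and Notch2, Notch3, Jag1, Hes1 and Hey1 below 0. Dll4 and Heyl lay above 0 by edgeR and DESeq2 and below 0 by limma-voom. Jag2 ran from 0.04 by edgeR to -1.21 by limma-voom.

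The ligands varied more between tumours than they differed between the groups. Jag1 (chromosome 2, 137081456 to 137116644, minus strand), a Jagged ligand found in basal mammary cells and in vessels, had 16.9 CPM in tumour 24, a median of 52.9 and 291 CPM in tumour 27, against 96.4, 96.8 and 77.6 CPM in epithelium. Tumours 1, 20, 21 and 27 lay above the epithelium, and the other 5 below it. The log2 fold change of Jag1 was -0.06 (SE 0.72, edgeR adjusted p = 0.963). Jag2 (chromosome 12, 112907819 to 112929776, minus strand), the second Jagged ligand, had 3.88 CPM in tumour 24, a median of 9.41 and 162 CPM in tumour 20, against 31.6, 39.0 and 24.2 CPM in epithelium. Only tumours 20 and 27 (162 and 78.9 CPM) exceeded the epithelium; the other 7 tumours, at 3.88 to 10.6 CPM, all lay below it. Its log2 fold change was 0.04 (SE 1.10, edgeR adjusted p = 0.982). The log2 fold change was -0.95 without tumour 20, -0.24 without tumour 27 and -0.12 without epithelium library 3, with edgeR adjusted p of 0.433, 0.895 and 0.961.

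Dll4 (chromosome 2, 119325784 to 119335962, plus strand), a Delta-like ligand known from sprouting vessels, had 5.02 CPM in tumour 4, a median of 11.6 and 48.1 CPM in tumour 1, against 14.6, 18.7 and 17.8 CPM in epithelium. Tumours 1 and 27 (48.1 and 40.8 CPM) lay above the epithelium and 5 tumours lay below it. The log2 fold change of Dll4 was 0.05 (SE 0.67, edgeR adjusted p = 0.966), and -0.29 without tumour 1. The 15 endothelial markers summed to 256 to 983 CPM in tumours and 1140 to 1470 CPM in epithelium; 8 of the 15 fell by edgeR and none rose, among them Pecam1, which encodes an adhesion molecule of endothelial junctions (88.1 ± 32.1 CPM in tumours and 378 ± 18.1 CPM in epithelium, SD, n = 9 and n = 3). The part of endothelial content in how Dll4, Notch4 and Hey1 compared between tumours and epithelium was not tested.

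The 3 targets also lay on both sides of the epithelium, each high in a few tumours and low in others. Hes1 (chromosome 16, 30064384 to 30067796, plus strand), the classic repressor induced by Notch, had 10.7 CPM in tumour 14, a median of 39.6 and 80.1 CPM in tumour 27, against 49.4, 46.3 and 46.2 CPM in epithelium. It lay below the epithelium in 5 tumours and above it in tumours 20 and 27, with a log2 fold change of -0.29 (SE 0.48, edgeR adjusted p = 0.691). Hey1 (chromosome 3, 8663359 to 8667256, minus strand), a target prominent in vessels, had 3.32 CPM in tumour 14, a median of 15.1 and 98.7 CPM in tumour 27, against 27.5, 44.6 and 28.2 CPM in epithelium. Tumours 27 and 17 (98.7 and 72.9 CPM) exceeded every epithelium library and 5 tumours lay below, with a log2 fold change of -0.17 (SE 0.93, edgeR adjusted p = 0.913). Heyl (chromosome 4, 123233556 to 123249875, plus strand), a target found in mural cells, had 2.6 CPM in tumour 14, a median of 6.75 and 28.0 CPM in tumour 1, against 6.58, 7.54 and 6.83 CPM in epithelium. It exceeded the epithelium in tumours 1, 20 and 21 (28.0, 12.9 and 9.29 CPM), with a log2 fold change of 0.32 (SE 0.64, edgeR adjusted p = 0.752), and -0.12 without tumour 1.

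The spread between tumours exceeded that between epithelium libraries for each of the 10 members. On the log2 CPM scale the standard deviation of the tumours was 1.86 for Jag2 and 1.82 for Hey1, against 0.35 and 0.39 in epithelium. Of 12526 tested genes with at least 5 CPM, 95.2% had a lower tumour spread than Jag2 and 94.8% a lower one than Hey1. Notch1 was the steadiest member, with 0.59 in tumours, below the median of 0.67 over all these genes, which was 0.12 in epithelium. The highest tumour exceeded the lowest 41.7-fold for Jag2, 29.7-fold for Hey1, 17.1-fold for Jag1 and 3.39-fold for Notch1.

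Levels per kilobase of exon allow the members to be set against each other. In tumours the order was Notch2 (20.7 ± 13.6 CPM per kb), Hes1 (18.9 ± 10.6), Notch1 (17.5 ± 6.81), Jag1 (14.9 ± 14.8), Hey1 (9.12 ± 10.5), Notch3 (7.43 ± 4.84), Jag2 (4.67 ± 7.76), Dll4 (4.57 ± 4.12), Notch4 (4.10 ± 3.17) and Heyl (1.70 ± 1.55), all as CPM per kb (SD, n = 9). Each neighbouring pair in this order differed by less than the larger of its 2 standard deviations. In epithelium the order began with Hes1 (23.2 ± 0.888 CPM per kb) and Notch2 (22.5 ± 1.08), which did not differ beyond their spread, and ran on to Jag1 (15.5 ± 1.88), Notch3 (12 ± 1.78), Notch1 (10.6 ± 1.37) and Hey1 (10.2 ± 2.98). Jag2 (4.54 ± 1.07), Dll4 (4.42 ± 0.565), Notch4 (1.99 ± 0.283) and Heyl (1.37 ± 0.098) followed (SD, n = 3). Jag1 to Notch3, Hey1 to Jag2, Dll4 to Notch4 and Notch4 to Heyl were the steps that exceeded the larger standard deviation, beside that from Notch2 to Jag1.

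Within the receptor class, Notch1 and Notch4 took larger mean shares in tumours than in epithelium, and Notch2 and Notch3 smaller ones. As a share of the summed per-length receptor level, Notch1 took 36.7 ± 11% in tumours and 22.4 ± 2.54% in epithelium (SD, n = 9 and n = 3), above every epithelium library in 8 of 9 tumours. Notch4 took 7.52 ± 2.71% in tumours and 4.22 ± 0.566% in epithelium, above in 7 tumours. Notch3 took 15.9 ± 9.6% in tumours and 25.5 ± 2.89% in epithelium, below in 7 tumours, and Notch2 39.8 ± 14.1% in tumours and 47.9 ± 3.81% in epithelium. Notch2 led the receptors in 5 tumours and in all 3 epithelium libraries, and Notch1 led in the other 4 tumours. The shares within a class sum to 100% and no test was made on them.

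Jag1 led the ligands in 8 tumours and in all epithelium libraries, at 63.1 ± 12.2% in tumours and 63.3 ± 2.79% in epithelium. In tumour 20 Jag2 led instead, at 51.4% of the ligand level. The summed level per length of the ligands was 5.16 to 71.8 CPM per kb in tumours, highest in tumour 27, and 21.4 to 27.1 CPM per kb in epithelium. Hes1 led the targets in 8 tumours, with Hey1 ahead in tumour 24, and in all epithelium libraries. The summed receptor level reached 87.5 CPM per kb in tumour 1 and 84.7 in tumour 17, against 26.4 to 48.4 in the other 7 tumours and 45.1 to 48.5 in epithelium.

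**Figure D3:**
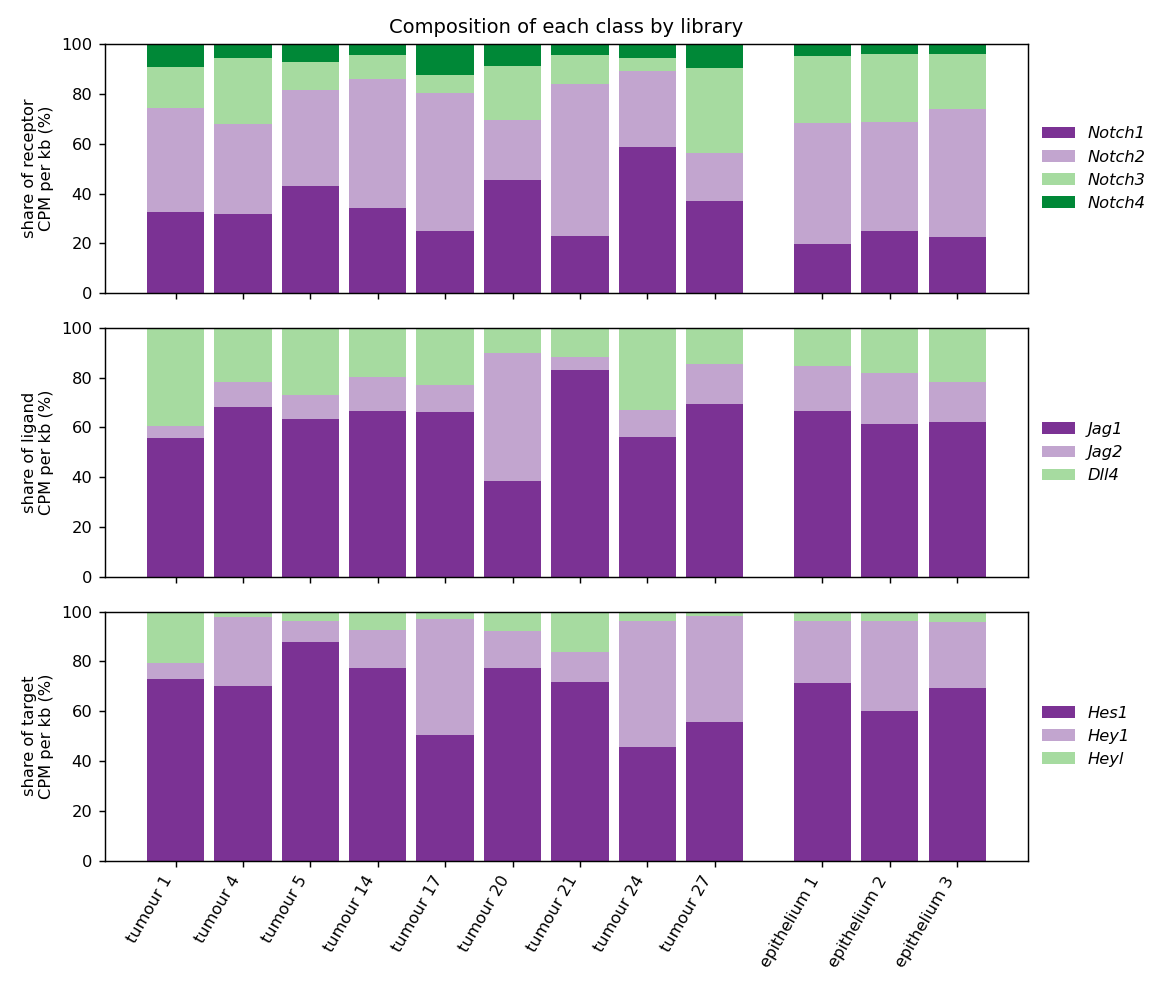
Share in percent of each member in the summed CPM per kb of its class, for receptors, ligands and targets, with 1 stacked bar per library and the 9 tumours left of the 3 epithelium libraries. Jag2 fills 51.4% of the ligand bar in tumour 20, and Notch1 takes at least 22.8% of the receptor bar in every tumour.

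Notch2 lies in a stretch of chromosome 3 that is raised in tumour 17, which was known from earlier results of these data. The counts of neighbours below therefore describe the stretch and do not test it. With the median of the other 8 tumours as the base, the log2 ratio of Notch2 in tumour 17 was 1.61 (505 CPM against a median of 166 CPM), after adding 0.5 CPM to both values. The 20 nearest genes with at least 5 mean CPM, 10 on each side, had a median log2 ratio of 2.74 in tumour 17, ranging from 0.44 to 7.07, and 19 of the 20 exceeded 1, as did 7.55% of 12803 genes in the genome. Notch2 was thus raised by less than the median of its neighbours. The mean was taken over all 12 libraries, tumour 17 included, so a gene high in tumour 17 alone could pass. Olfr1402, the neighbour at 7.07, passed in this way (named after its value was seen). It had 69.2 CPM in tumour 17, at most 3.39 CPM in the other tumours and a mean of 0 CPM in epithelium. The count of 19 and the top of the range therefore rest in part on the filter. Sec22b, a vesicle trafficking gene at -90 kb from Notch2, had 807 CPM in tumour 17 against a median of 66.4, and Pde4dip, which encodes a centrosome and Golgi protein, had 1950 CPM against 104. On the other side, Phgdh, the first enzyme of serine synthesis, had 262 CPM against 62.3, and Zfp697, a zinc finger gene, had 108 CPM against 9.4. Gja5, a gap junction gene, was the 1 neighbour not above 1, at 6.06 CPM against 4.34.

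Tumour 1 had the second highest Notch2 (392 CPM, log2 ratio 1.24) without such a stretch: the median of the same neighbours was -0.61 and none exceeded 1. In the other 7 tumours the Notch2 ratio ran from -1.19 in tumour 20 to 0.87 in tumour 21, and 0 or 1 of the 20 neighbours exceeded 1 in each of them. Aph1a, a gene of the gamma-secretase complex at -2115 kb from Notch2, had 324 CPM in tumour 17 against a median of 67.6 CPM (named after its value was seen). Hey1 lies on the same chromosome but far off, at -89346 kb from Notch2. For Hey1 tumour 17 was the second highest of 9 (72.9 CPM), below tumour 27 (98.7 CPM). The genes around Hey1 were not examined, and a relation of its level to the raised stretch was not tested.

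**Figure D4:**
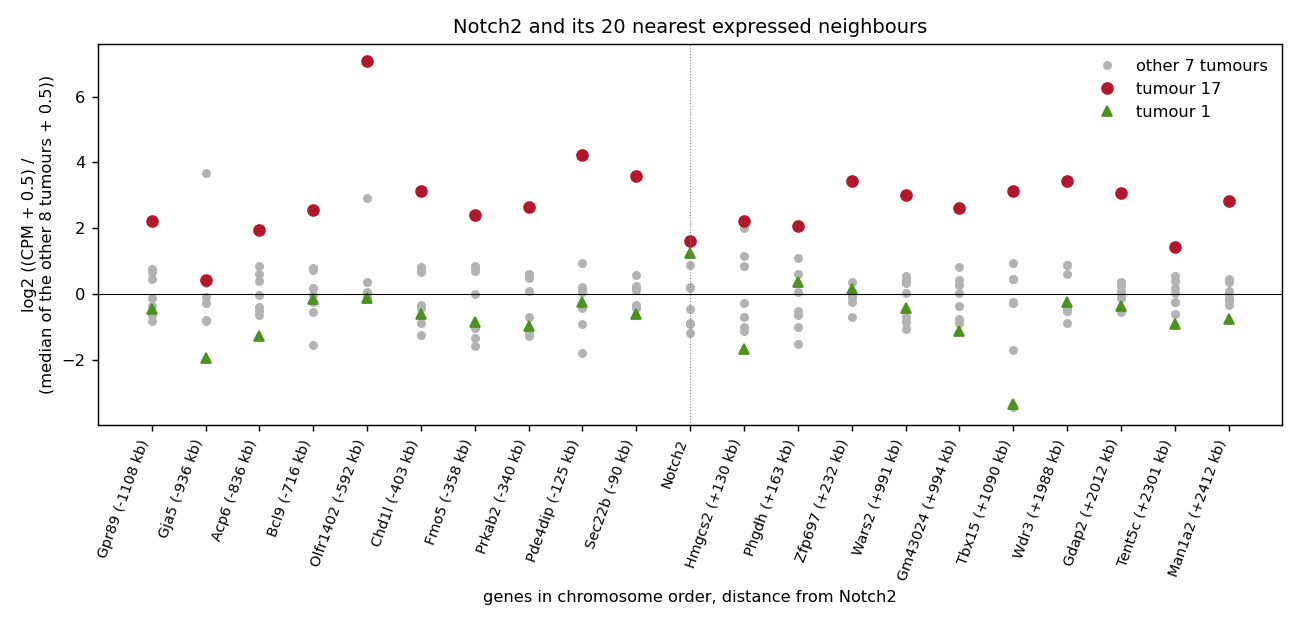
Log2 ratio of each tumour to the median of the other 8, with 0.5 CPM added to both, for Notch2 and its 20 nearest chromosome 3 genes of at least 5 mean CPM, in chromosome order with the distance from Notch2 in kb. The mean was taken over all libraries, tumour 17 included. Tumour 17 lies above 1 for 19 neighbours, and Notch2 at 1.61 falls below their median of 2.74; in tumour 1 Notch2 lies at 1.24 above its neighbours.

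Across the 9 tumours, 8 relations between a member and the mean log2 CPM of a cell type marker list were computed, each with exact permutation over all 362880 pairings, two-sided, and adjusted over the 8. None passed after adjustment. Jag2 and the basal score had r = 0.80 (exact permutation p = 0.0165, adjusted 0.0623) and Spearman's rho = 0.55 (exact permutation p = 0.133, adjusted 0.212), but r was 0.13 without tumours 20 and 27, so the relation rests on those samples. Jag1 and the basal score had r = 0.68 (exact permutation p = 0.0401, adjusted 0.0785) and rho = 0.60 (exact permutation p = 0.0968, adjusted 0.194), with r = 0.18 without the same tumours. The basal markers summed to 4630 CPM in tumour 27 and 1990 CPM in tumour 20, against 189 to 525 CPM in the other 7 tumours and 1370 to 1910 CPM in epithelium. Dll4 and the endothelial score had r = 0.77 (exact permutation p = 0.0165, adjusted 0.0623) and rho = 0.78 (exact permutation p = 0.0172, adjusted 0.138), with r = 0.73 without the 2 tumours farthest from the median score. Notch3 and the mural score had r = 0.74 (exact permutation p = 0.0233, adjusted 0.0623) and rho = 0.70 (exact permutation p = 0.0433, adjusted 0.173), with r = 0.57 without the 2 farthest. Heyl and the mural score had r = 0.67 (exact permutation p = 0.0491, adjusted 0.0785) and rho = 0.63 (exact permutation p = 0.076, adjusted 0.194), with r = 0.44 without the 2 farthest. The mural markers did not all move together. Des had r = -0.77 with Notch3 and -0.27 with Heyl. The other mural markers with at least 5 mean CPM in tumours had 0.44 to 0.73 with Notch3 and 0.33 to 0.91 with Heyl, without a test. Markers of the other lists at that level were mixed too, also without a test. For endothelial markers r ran from -0.11 to 0.84 with Dll4, -0.05 to 0.59 with Notch4 and -0.06 to 0.41 with Hey1. For basal markers it ran from -0.07 to 0.91 with Jag1 and 0.2 to 0.91 with Jag2. For luminal progenitor markers it ran from -0.67 to 0.5 with Notch1. Notch4 and the endothelial score had r = 0.47 (exact permutation p = 0.196, adjusted 0.262) and rho = 0.48 (exact permutation p = 0.194, adjusted 0.258), with r = 0.17 without the 2 farthest. Hey1 and the same score had r = 0.23 (exact permutation p = 0.547, adjusted 0.547) and rho = 0.15 (exact permutation p = 0.708, adjusted 0.708), with r = 0.13 without the 2 farthest. Notch1 and the luminal progenitor score had r = -0.42 (exact permutation p = 0.258, adjusted 0.295) and rho = -0.23 (exact permutation p = 0.552, adjusted 0.631), with r = -0.18 without the 2 farthest.

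**Figure D5:**
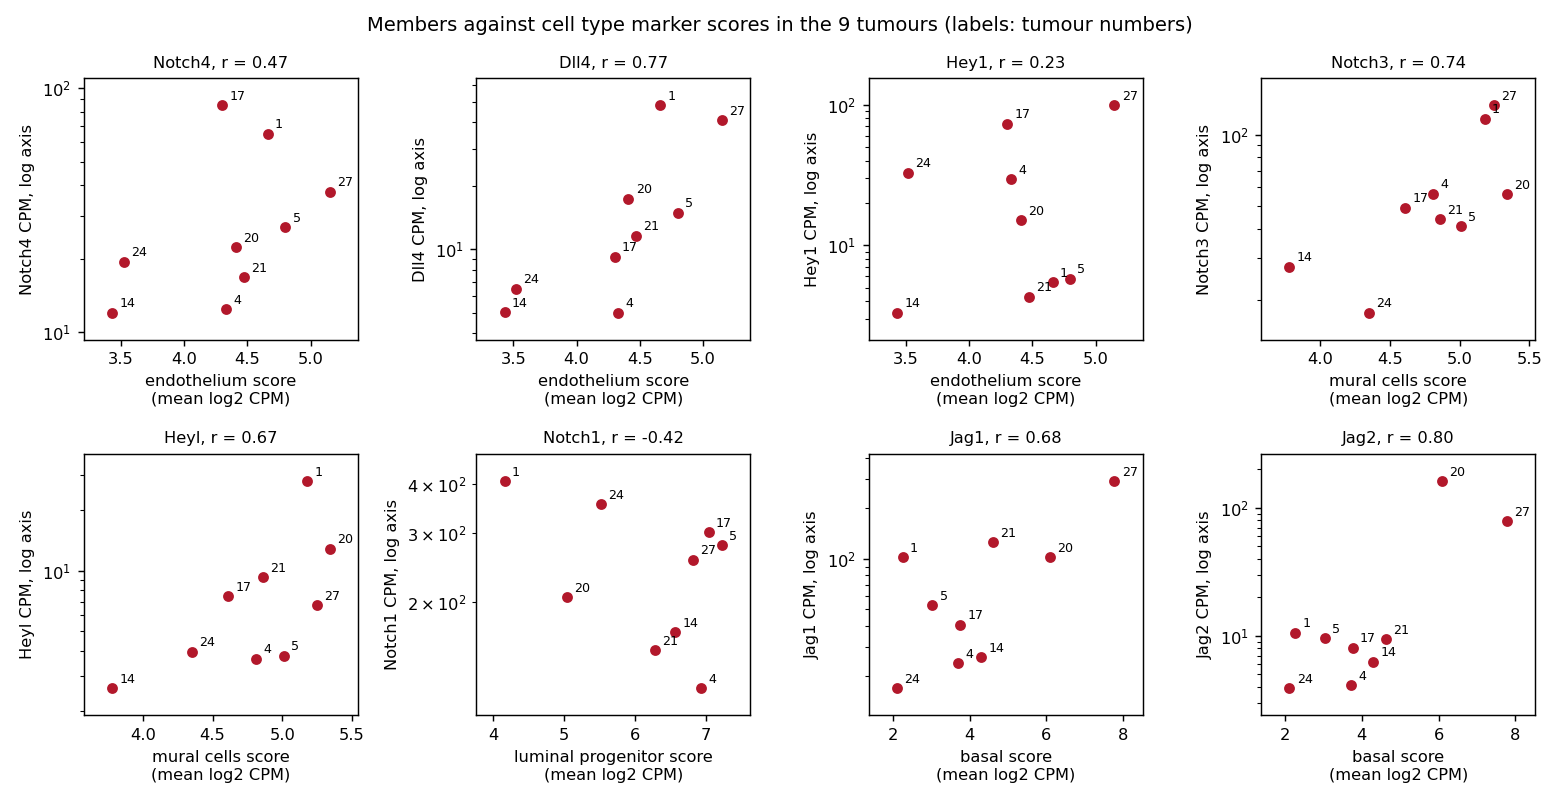
Member level in CPM on a log axis against the mean log2 CPM of the named marker list in the 9 tumours, 1 panel for each of the relations, with the tumour number beside each point. The Jag1 and Jag2 panels are carried by tumours 20 and 27 at the right, and Dll4 is lowest in tumours 4, 14 and 24 and highest in tumours 1 and 27.

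Among the 45 pairs of members, none passed after adjustment over the 45 (exact permutation), and 40 had a positive r, with a median of 0.40 over the 45. These pairs share genes and tumours, and the same values over all gene pairs were not computed. Whether the members move together more than other genes was therefore not tested. The pair with the highest r was Jag1 with Dll4, at r = 0.84 (exact permutation p = 0.00447, adjusted 0.144) and rho = 0.82 (exact permutation p = 0.0108, adjusted 0.162), with r = 0.78 without the 2 farthest tumours. By rho the highest pair was Jag2 with Dll4, at rho = 0.88 (exact permutation p = 0.00308, adjusted 0.138) and r = 0.61 (exact permutation p = 0.0622, adjusted 0.28), with r = 0.77 without the 2 farthest. By Pearson's r of log2 CPM over the 9 tumours among 11505 protein-coding genes, the genes most like Notch1 were Ttc13, Kars and Got2 (0.99, 0.98 and 0.97), all 3 on chromosome 8, while Notch1 is on chromosome 2. Those most like Notch2 were Ptpn7 (0.95), Znrf3 and Mef2d (0.92 each), of which Mef2d lies on chromosome 3 like Notch2 (88142372 to 88172086). Those most like Jag1 were Ppp1r16b and Fbln7 (0.96 each), both on chromosome 2 like Jag1, and Htra1 (0.95). Those most like Jag2 were Ripor2, Piwil2 and Hba-a2 (0.95, 0.94 and 0.93), and those most like Hey1 were Slc25a47, Deptor and Clic6 (0.93, 0.92 and 0.89). Dll4 was nearest to Itga7, Mrs2 and Lpin2 (0.94 each), Heyl to Pitpnm2 (0.96), Hivep1 and Rasa3 (0.95 each), and Notch3 to Exoc2 (0.95), Gipc2 and Kitl (0.91 each). Those near Notch4 included Csdc2 (0.92) and Prag1 (0.89), and Hes1 was nearest to Mier3 (0.91), Pgf and Zmym2 (0.90 each). These are the highest of 11505 values over 9 points and carry no test, and 6 of the 30 were also among the 3 nearest by Spearman's rho.

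Beyond the 10 members, 58 further genes of the pathway were listed, of which 53 were tested. By edgeR, 0 were higher and 3 were lower in tumours, 5.66% beside the 20.3% of all genes, and their median log2 fold change was 0.19; up to 2 were higher when 1 tumour was left out, as with tumour 4 or 24. Mfng, the Fringe enzyme that modifies Notch receptors, fell to 3.0 to 10.9 CPM in tumours, against 25.3 to 27.7 CPM in epithelium (log2 fold change -2.06, SE 0.34, edgeR adjusted p = 0.00115). Dtx1, which encodes a ubiquitin ligase that binds the receptor's intracellular part, fell to 0.21 to 2.8 CPM in tumours, against 23.4 to 29.0 CPM in epithelium (log2 fold change -4.24, SE 0.58, edgeR adjusted p = 0.000325). Psen2, a catalytic subunit of gamma-secretase, had 10.5 to 24.7 CPM in tumours and 33.7 to 40.7 CPM in epithelium (log2 fold change -1.08, SE 0.28, edgeR adjusted p = 0.0158). Psen2 lost its call without any 1 of the 3 epithelium libraries, at an adjusted p of up to 0.0832.

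Over the same libraries all 7 B cell markers and all 8 T and NK cell markers fell, with sums of 2.77 to 33.0 CPM in tumours and 410 to 486 CPM in epithelium for the T and NK list. Their part in the fall of Mfng, Dtx1 and Psen2 was not tested. Mfng was the 1 of 5 glycosyltransferases called, Dtx1 the 1 of 12 trafficking genes and Psen2 the 1 of 10 receptor proteases, while none of 3 other ligands, 14 nuclear co-regulators and 9 other targets was called. Dll1, another Delta-like ligand, had 3.65 to 149 CPM in tumours and 27.9 to 54.7 CPM in epithelium (log2 fold change 0.33, SE 0.79, edgeR adjusted p = 0.792). Kdm5a, a histone demethylase that works with RBPJ, had 147 to 325 CPM in tumours and 225 to 228 CPM in epithelium (log2 fold change -0.05, edgeR adjusted p = 0.907). Ccnd1, the cyclin D1 gene and a reported Notch target, had 63.6 to 1330 CPM in tumours and 124 to 128 CPM in epithelium, above in 8 tumours (log2 fold change 2.17, SE 0.84, edgeR adjusted p = 0.0833). Ccnd1 was called higher by DESeq2 (2.17, adjusted p = 0.0166), by limma-voom (1.62, adjusted p = 0.0103) and by edgeR without tumour 24 (2.33, adjusted p = 0.0404). That was the only 1 of the 12 edgeR fits without 1 library that called Ccnd1. In the others its edgeR adjusted p reached up to 0.222.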

How the data were processed

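RNA-seq libraries of 9 tumours and 3 epithelium preparations were made from total RNA with a stranded TruSeq protocol, per the labels. The authors deposited raw counts per gene for each library, whole numbers with no normalization, plus 5 summary counts that name no gene and were left out of library sizes (alignments outside genes were 8.08 to 32.25% in tumours and 39.9 to 41.51% in epithelium). GRCm38 was the build and TopHat2 2.1.1, HTSeq 0.11.0 and FastQC 0.11.8 the tools, per the submitters' processing notes; annotation release and strand setting are not given in the sources used. Gene positions and exonic lengths came from GENCODE M21, which 54106 of 54658 symbols matched.

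Counts were tested in R 4.3.3 with edgeR 4.0.16 (filterByExpr, trimmed mean of M values scaling, robust quasi-likelihood F test, group as the only term), Benjamini-Hochberg adjustment over all genes tested and a threshold of 0.05. The SE was the size of the log2 fold change divided by √F. DESeq2 1.42.0 (9834 genes with no adjusted p) and limma 3.58.1 were alternatives, and other steps used scipy 1.17.1, pandas 2.3.3, numpy 2.4.6 and matplotlib 3.10.9 in Python 3.11.15. CPM carry no prior count; log2 CPM of scores and relations use a prior count of 2. Fits and relations were checked on simulated data with known answers. The alternatives were other scaling, filters, tools, a gene length offset, leaving out each library, and tumours 4 and 17 together.

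The members and lists were chosen with earlier results of these data known. Named genes are the members, up to 2 called genes by adjusted p and direction from each pathway class or else the most abundant 1, the 3 genes most like each member, the 5 nearest genes on each side of Notch2, Trp53 and the most abundant marker of a described list; other names were chosen after their values were seen. A gene that this rule gives is not reported here. No 2 libraries of a group were copies (smallest chi-square per degree of freedom 217 in tumours and 24.1 in epithelium).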

Additional observations from a re-analysis of the deposited data

Results flagged for a closer look

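Jag2 made up 51.4% of the summed per-length ligand level in tumour 20, against 4.82 to 15.8% in the other 8 tumours and 16.2 to 20.7% in epithelium. The gap between tumour 20 and the next tumour, divided by the range of the 9, passed Dixon's 95% critical value. It was the 1 value marked among 30 tested over the tumours (levels and class shares of the 10 members, levels of 6 other pathway genes and 4 marker scores), where chance marks about 1 in 20, or 1.5. None of the 10 levels on the log2 CPM scale was marked.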

How the results depend on the processing

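No paired analysis was possible because the groups share only the label number 1. Of the alternatives, limma-voom with group quality weights called Notch1 (0.64) and Notch3 (-0.94), so that 1 member was higher and 1 lower, and it called 4994 genes higher and 5622 lower; DESeq2 called 3799 higher. Among the other pathway genes, of which the main edgeR fit tested 53, those called higher were 9 by limma-voom, 4 by DESeq2, 1 with a gene length offset and 2 without tumours 4 and 17 (the alternative added after seeing the data), and limma-voom called 11 lower. Over all genes limma-voom called 23.3% higher and 26.2% lower, and DESeq2 called 13.1% higher. With the length offset 1962 of all genes were called higher, and 2214 without tumours 4 and 17. The log2 fold change changed sign for Notch2 with the length offset (0.08), for Jag1 without tumours 4 and 17 (0.18), and for Heyl by limma-voom (-0.05). For Jag2 it was -0.01 with upper quartile scaling and with at least 10 counts in 9 libraries, -0.96 by DESeq2 and -1.21 by limma-voom, and for Dll4 it was -0.09, -0.03 and -0.36 with upper quartile scaling, the count minimum and limma-voom. None of these sign changes concerned a called value, and the cause was not tested. Without 1 library at a time no member was called by edgeR, and the log2 fold changes ran from 0.63 to 0.83 for Notch1, -0.36 to 0.0 for Notch2, -0.93 to -0.57 for Notch3, 0.74 to 1.17 for Notch4, -0.56 to 0.08 for Jag1, -0.95 to 0.22 for Jag2, -0.29 to 0.17 for Dll4, -0.5 to -0.17 for Hes1, -0.66 to 0.09 for Hey1 and -0.12 to 0.44 for Heyl. Leaving out 1 library, 506 to 2486 genes were higher, 1496 to 2753 lower, and 0 to 2 pathway genes higher and 2 to 4 lower. Of the 30 genes most like the members 6 were kept with Spearman's rho, and without division by length Heyl took a mean share of 14.6% of its class in tumours. Over all genes the median log2 fold change, 0.17 by edgeR, was 0.07 with upper quartile scaling, -0.02 by limma-voom and 0.35 by DESeq2. Of the values computed under alternatives, 23 changed sign, 2 gained a call, 21 moved (counts by over 1.5 times, 1 share by over 1 SD), and 340 did none of these. Depth limits Hes5, Hes2, Hes7, Dll3 and Dner, which were too low to be tested.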
